A study of Rattus norvegicus with 36 samples.

Results

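The genes described here are *Htt* (ENSRNOG00000011073), the rat huntingtin gene, and 2 further genes, ENSRNOG00000010867 and ENSRNOG00000008683, in the striatum of BACHD transgenic (TG) and wildtype (WT) rats. These 3 genes, of 12657 tested and 23965 in the count table, were selected on their fitted TG/WT fold changes and adjusted p-values, being called higher in TG than in WT animals in every environment. The call was an adjusted p of at most 0.1 with a log2 fold change of at least 0.3, and genes passing it in all 3 environments made up 0.0237% of the genes tested. Since the TG/WT contrasts chose the genes, they are given below as a description with no test.

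Poly(A) RNA was sequenced from 36 male Sprague Dawley rats at 2 months of age, with 6 animals in each of 6 groups. The TG animals were heterozygous for a bacterial artificial chromosome (BAC) holding the human *HTT* locus with flanking sequence and its own regulatory elements, in which a mutant exon 1 with a mixed CAA/CAG repeat lies between LoxP sites, and the WT animals came from the same litters. WT_SE and TG_SE rats grew up in the standard environment (SE), WT_EE and TG_EE rats lived in an enriched environment (EE) from weaning, and WT_MS and TG_MS rats underwent daily maternal separation (MS, written ELS in the sample labels) in the first weeks of life. Whole litters were allocated to an environment, so animals of a group may be littermates, and all TG animals came from a single transgenic line.

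Huntingtin is a large scaffold protein of the cytoplasm that takes part in vesicle transport along microtubules, autophagy and transcriptional control, and it is made in most cell types, neurons included. An expanded run of CAG codons in its first exon causes Huntington disease, in which medium spiny neurons of the striatum are lost first. The BACHD rat keeps its own *Htt* alleles and adds the human gene under the human promoter.

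The rat *Htt* promoter is shown because it drives the endogenous copy that both genotypes share. RefSeq lists *Htt* on the minus strand of chromosome 14 (GRCr8), and the 250 bases before its annotated start, chr14:80219669-80219918, read 5′ to 3′ as follows, with matches to the GC box GGGCGG (or CCGCCC on the other strand) and to the cAMP response element TGACGTCA in capitals.
rat *Htt* promoter: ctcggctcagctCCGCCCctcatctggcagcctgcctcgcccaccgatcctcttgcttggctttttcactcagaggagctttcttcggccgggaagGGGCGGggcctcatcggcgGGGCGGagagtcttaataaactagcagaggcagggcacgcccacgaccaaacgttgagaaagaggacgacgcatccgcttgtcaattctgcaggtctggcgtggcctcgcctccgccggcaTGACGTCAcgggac
The window was 63.2% G and C and held 3 GC box matches and 1 match to the cAMP response element. Among 33469 RefSeq rat promoter windows of the same length, 30.5% held the GC box and 1.59% the cAMP response element. A match describes the letters only, the counts carry no coordinates, and the promoter of the human gene on the BAC is not shown. In RefSeq gene order the nearest protein-coding neighbours of *Htt* are *Grk4* before its start and *Msantd1* beyond its end.

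Of the 3 genes, *Htt* alone was matched to a symbol. All 23965 rows carry rat Ensembl identifiers, and the reference used here does not pair those identifiers with symbols, so no name or function is given for ENSRNOG00000010867 or ENSRNOG00000008683. The methods of the study state that *Msantd1* was left out of its own tests because its sequence lies in the 3′ flank of the BAC. Besides *HTT*, the paper names only *Alk* as higher in TG animals in every environment. Which rows hold *Alk* and *Msantd1* was not determined here, and the *Msantd1* row was not left out. Whether ENSRNOG00000010867 or ENSRNOG00000008683 is either of these genes was not tested. Human *HTT* has no row under an identifier of its own. How far human reads entered the *Htt* row or other rows therefore cannot be told from these counts. The paper reports an unchanged rat transcript, added human transcripts in TG animals and a several-fold rise in total *HTT*. The *Htt* values below are those of this row, and cannot be read as the rat transcript alone or as total huntingtin. For the same lack of symbols, the striatal dissection was not checked against marker genes.

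Total counts per library ranged from 9895073 to 19284439, and no 2 libraries were identical. Counts below are normalized read counts, scaled by TMM factors to the mean library and not divided by gene length, so levels are compared between animals and not between genes. In the first of 5 surrogate variables (hidden sources of variation estimated from the counts), 5 libraries stood apart with values over 0.25 against 0.0975 for the next. They were WT_SE animals 2, 5 and 6, WT_EE animal 6 and TG_EE animal 6, so 4 were WT and 1 was TG, and fold changes are also given without them. In bulk striatum, fewer cells of a type and less RNA per cell cannot be told apart.

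*Htt*, the gene whose human counterpart is on the BAC, had higher counts in every TG animal than in any WT animal. Its normalized read count had a lowest, median and highest value of 1493, 1591 and 1683 in WT_SE, 1474, 1619 and 1897 in WT_EE and 1484, 1598 and 1713 in WT_MS. In the carriers the corresponding values were 2166, 2396 and 2620 in TG_SE, 2194, 2354 and 2537 in TG_EE and 2316, 2468 and 2716 in TG_MS. The 18 TG and the 18 WT animals did not overlap, and the lowest TG value was 1.14 times the highest WT value. The gene was chosen on its TG/WT contrasts, and the share of all tested genes without such overlap was not computed. Group means (± SD, n = 6) were 1590 ± 71.1 in WT_SE, 1637 ± 141 in WT_EE, 1591 ± 91.9 in WT_MS, 2392 ± 163 in TG_SE, 2353 ± 110 in TG_EE and 2467 ± 143 in TG_MS.

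Fitted TG/WT log2 fold changes of *Htt* came to 0.59 (SE 0.05) under SE, 0.55 (SE 0.04) under EE and 0.57 (SE 0.05) under MS. Averaged over environments it was 0.57 (SE 0.02), a 1.49-fold difference with a 95% interval from 1.43 to 1.54. On the count scale TG animals exceeded WT animals by 802 (SE 72.7) in SE, 716 (SE 73.1) in EE and 876 (SE 69.4) in MS. The log2 difference of *Htt* lay between 0.55 and 0.59 over the environments. The choice required a call in every environment, so this likeness is no independent result. Without the 5 libraries that stood apart, the log2 fold changes were 0.53 in SE, 0.51 in EE and 0.57 in MS.

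ENSRNOG00000010867 had the largest fold of the 3 genes, with WT animals close to the lower limit of the tested counts. Its normalized read count had a lowest, median and highest value of 52.5, 61.5 and 71.4 in WT_SE, 52.6, 65.0 and 78.7 in WT_EE and 55.0, 66.1 and 84.7 in WT_MS. In TG_SE the values were 437, 695 and 1029, in TG_EE 704, 914 and 1150, and in TG_MS 711, 797 and 933. The lowest TG animal had 5.16 times the count of the highest WT animal, so the genotypes were fully separated. This gene too was chosen on its TG/WT contrasts, and the share of all tested genes separated in this way was not computed. Group means (± SD, n = 6) were 61.8 ± 6.90 in WT_SE, 65.2 ± 10.5 in WT_EE, 69.2 ± 11.9 in WT_MS, 719 ± 218 in TG_SE, 898 ± 168 in TG_EE and 808 ± 83.8 in TG_MS.

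For ENSRNOG00000010867, TG/WT log2 fold changes came to 3.52 (SE 0.14) under SE, 3.66 (SE 0.13) under EE and 3.51 (SE 0.14) under MS. Without the 5 libraries that stood apart it was 3.48, 3.66 and 3.49 in the same order. Raw counts of this gene ran from 47 to 96 in WT animals and from 410 to 1172 in TG animals.

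ENSRNOG00000008683 was higher in TG animals by a fold close to that of *Htt*. Its normalized read count had a lowest, median and highest value of 216, 245 and 297 in WT_SE, 184, 227 and 257 in WT_EE and 223, 250 and 261 in WT_MS. In TG_SE the values were 344, 373 and 439, in TG_EE 286, 364 and 382, and in TG_MS 337, 370 and 410. Within each environment all 6 TG animals lay above all 6 WT animals. The share of all tested genes separated within every environment was not computed, and the same contrasts chose this gene. Across environments, 1 TG_EE animal at 286 lay below the highest 2 WT_SE animals, at 288 and 297. Group means (± SD, n = 6) were 252 ± 33.9 in WT_SE, 225 ± 26.1 in WT_EE, 247 ± 13.7 in WT_MS, 384 ± 41.9 in TG_SE, 354 ± 35.6 in TG_EE and 376 ± 26.7 in TG_MS.

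The log2 fold change of ENSRNOG00000008683 between TG and WT came to 0.52 (SE 0.09) under SE, 0.68 (SE 0.09) under EE and 0.66 (SE 0.09) under MS. Averaged over environments it was 0.62 (SE 0.05), a 1.54-fold difference with a 95% interval from 1.44 to 1.65. Without the 5 libraries that stood apart the values were 0.47, 0.58 and 0.65 in the same order. Without WT_SE animal 1, the SE value was 0.48 (SE 0.11) and the gene lost its call there, and with it its place among genes called in all 3 environments.

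**Figure D1:**
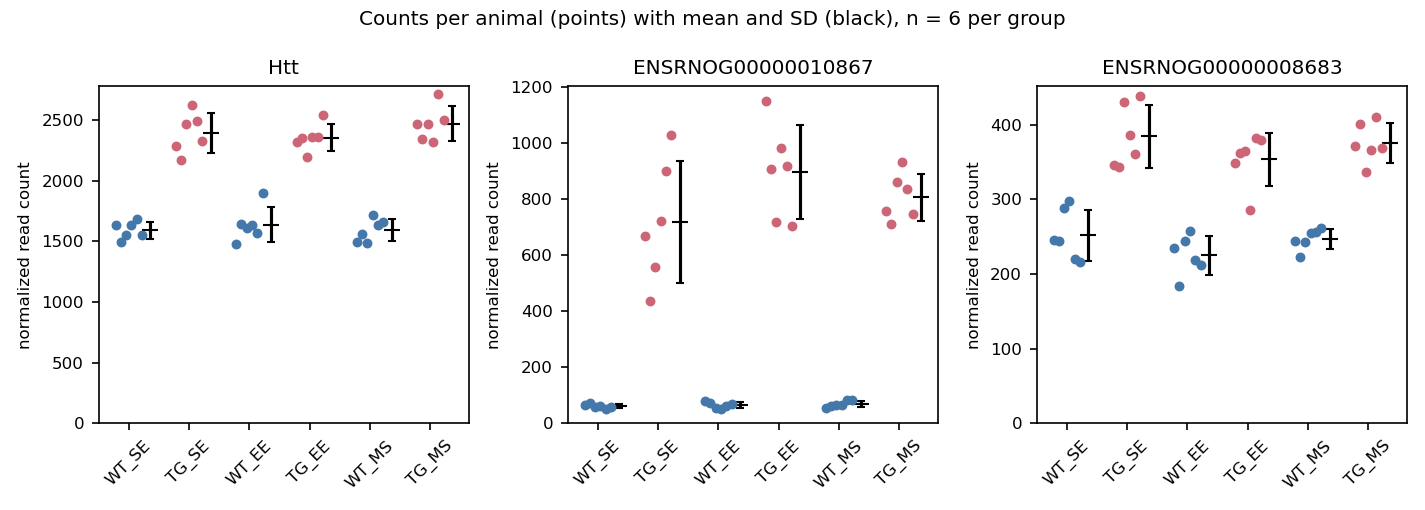
Normalized read count (vertical axis, from 0) of each animal in the 6 groups for *Htt*, ENSRNOG00000010867 and ENSRNOG00000008683, with WT in blue, TG in red and the mean ± SD of 6 animals in black. TG animals lie above WT animals in each environment for all 3 genes, in the libraries that also chose the genes. The spread among TG_SE animals is widest for ENSRNOG00000010867, from 437 to 1029.

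Genes just outside the choice show where the threshold fell. In all, 27 genes were called higher in at least 1 environment, 3 of them in exactly 2 environments. Of those 3, one had log2 fold changes of 0.35, 0.32 and 0.24 in SE, EE and MS and missed the call in MS. Another had 0.31, 0.27 and 0.32 and fell short of the minimum fold change in EE. The remaining one had 0.16, 0.40 and 0.57 and missed the call in SE. By contrast, the lowest fold change just inside the choice was the 0.52 of ENSRNOG00000008683 in SE. Per environment, the share of tested genes called higher in TG came to 0.0553% under SE, 0.174% under EE and 0.0553% under MS.

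The library numbers in the sample titles fall into 6 runs of 6, and a run contains a single animal from each group. The genotype difference was therefore also computed inside each run, between 3 TG and 3 WT animals. The same libraries chose the genes, so these values are a description and no independent check. The share of all tested genes without overlap in a run was not computed. The difference in mean log2 CPM (counts scaled to equal library size) for *Htt* ranged from 0.53 to 0.63 over the 6 runs, with no overlap of TG and WT animals in 6 of 6 runs. For ENSRNOG00000010867 it ranged from 3.25 to 3.84, again without overlap in 6 of 6 runs. ENSRNOG00000008683 varied more, from 0.35 to 0.79, and was without overlap in 5 of 6 runs. The run with overlap was run 4, which holds the TG_EE animal with a count of 286.

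**Figure D2:**
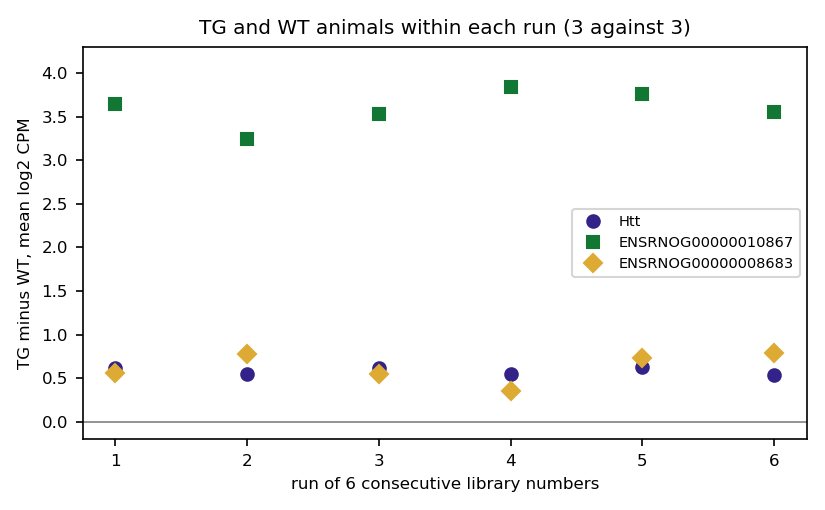
Difference in mean log2 CPM between TG and WT animals (vertical axis) within each of 6 runs of consecutive library numbers (horizontal axis), 3 animals per genotype and run, for the 3 genes. Every point lies above 0, in the libraries that also chose the genes. ENSRNOG00000010867 lies between 3.25 and 3.84 and both other genes between 0.35 and 0.79.

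Whether the rearing environment changed the 3 genes was tested within each genotype, a comparison that the choice of genes did not use. None of the 18 contrasts of these genes (EE/SE, MS/SE and EE/MS in WT and in TG) was called by edgeR's quasi-likelihood test with Benjamini-Hochberg adjustment over 12657 genes, and 0% of all tested genes were called in any of these contrasts. By unadjusted p, 1 of the 18 contrasts fell under 0.05 in the main edgeR fit with 5 surrogate variables. In the exact two-sided permutation test of log2 CPM between 6 and 6 animals, 0 did. DESeq2 with the same surrogate variables also called 0 of the 18. Over all tested genes, 386 to 777 per contrast had an unadjusted edgeR p under 0.05. At the same thresholds the paper reports some genes higher in TG_EE than in TG_SE, and none for MS/SE or within WT. The 0% called is thus that of the fit used here. The fitted estimates are adjusted for 5 surrogate variables and can differ from the group means above, so values from the same fit without surrogate variables are given beside them. Without surrogate variables 5 of the 18 contrasts turned direction, and 7 did with 2 of them, none of these contrasts being called in either fit.

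*Htt* differed little between environments among carriers. The TG_EE/TG_SE log2 fold change was 0.02 (SE 0.05; edgeR adjusted p = 0.9998), and the 95% interval of the fold ran from 0.949 to 1.08. For TG_MS/TG_SE it was 0.05 (SE 0.04; edgeR adjusted p = 0.9997), with an interval from 0.976 to 1.10. TG_EE/TG_MS gave -0.03 (SE 0.04), with an interval of the fold from 0.918 to 1.04. Without surrogate variables the 3 values were -0.02 (SE 0.05), 0.04 (SE 0.05) and -0.07 (SE 0.05), so TG_EE/TG_SE turned direction. Among WT animals the log2 fold changes were 0.06 (SE 0.04) for WT_EE/WT_SE, 0.07 (SE 0.05) for WT_MS/WT_SE and -0.02 (SE 0.04) for WT_EE/WT_MS. Without surrogate variables they were 0.04 (SE 0.05), 0.00093 (SE 0.05) and 0.04 (SE 0.05), the middle value matching the nearly equal group means of WT_MS and WT_SE.

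ENSRNOG00000010867 had its highest mean in TG_EE and its lowest TG mean in TG_SE, but the 2 groups overlapped. Its TG_EE/TG_SE log2 fold change was 0.16 (SE 0.12; edgeR adjusted p = 0.9998), a fold of 1.12 with a 95% interval from 0.951 to 1.32. The exact two-sided permutation test gave p = 0.132. This estimate depended on the surrogate variables. Without them it was 0.32 (unadjusted p = 0.0206 and adjusted p = 0.521 in edgeR). With 2 of them it was 0.37 (unadjusted p = 0.00251 and adjusted p = 0.222 in edgeR). With the runs of library numbers in their place it was 0.34 (unadjusted p = 0.0135 and adjusted p = 0.351 in edgeR). In each of these fits its unadjusted p was the lowest of the 18 contrasts, and it passed the minimum fold change but not the adjusted p. TG_MS/TG_SE was -0.01 (SE 0.11) and TG_EE/TG_MS was 0.17 (SE 0.11), neither of them called. The sign of TG_MS/TG_SE also depended on the surrogate variables, since it was 0.17 (SE 0.13) without them, 0.18 (SE 0.11) with 2 and 0.19 (SE 0.13) with the runs of library numbers in their place, in the direction of the group means. In WT animals, where counts were low, the log2 fold change of WT_EE/WT_SE was 0.02 with a wider error (SE 0.17). For WT_MS/WT_SE it was 0.00 (SE 0.12), but the SE of this contrast was 0.21 with DESeq2 size factors. The SE of 0.12 was thus unstable. Without surrogate variables the values were 0.07 (SE 0.19) for WT_EE/WT_SE and 0.16 (SE 0.19) for WT_MS/WT_SE.

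ENSRNOG00000008683 had the lowest unadjusted p of the 18 contrasts in the main fit, for WT_EE against WT_SE. Its log2 fold change there was -0.25 (SE 0.09), with unadjusted p = 0.00655 and adjusted p = 0.694 in edgeR, and the exact two-sided permutation test gave p = 0.162. Without surrogate variables the value was -0.17 (SE 0.09), with unadjusted p = 0.0632 and adjusted p = 0.9999 in edgeR. With runs in their place it was also -0.17 (SE 0.09), with unadjusted p = 0.0670 and adjusted p = 0.9999 in edgeR. The 6 WT_EE animals ran from 184 to 257 and the 6 WT_SE animals from 216 to 297, so the groups overlapped. Of the 12657 genes tested in this contrast, 762 had an unadjusted p under 0.05. In TG animals the corresponding log2 fold change was -0.10 (SE 0.09), and TG_MS/TG_SE was 0.00 (SE 0.08). Without surrogate variables these were -0.12 (SE 0.08) and -0.03 (SE 0.08).

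The change of the TG/WT difference between environments, built from the contrasts that chose the genes, is given as an estimate only. Relative to SE, the log2 difference of *Htt* changed by -0.04 (SE 0.07) in EE and by -0.02 (SE 0.06) in MS. ENSRNOG00000010867 gave 0.14 (SE 0.22) in EE and -0.01 (SE 0.20) in MS. ENSRNOG00000008683 gave 0.15 (SE 0.13) in EE and 0.14 (SE 0.13) in MS. In this main fit the 95% interval of each of these 6 estimates held 0. Without surrogate variables the values for EE and MS were -0.07 (SE 0.08) and 0.04 (SE 0.08) for *Htt*, 0.25 (SE 0.23) and 0.01 (SE 0.25) for ENSRNOG00000010867, and 0.05 (SE 0.12) and -0.0010 (SE 0.12) for ENSRNOG00000008683. With 2 surrogate variables the EE value of ENSRNOG00000010867 was 0.46 (SE 0.22), further from 0 against its SE than any estimate of the main fit. These estimates therefore depended on how hidden variation was modelled.

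**Figure D3:**
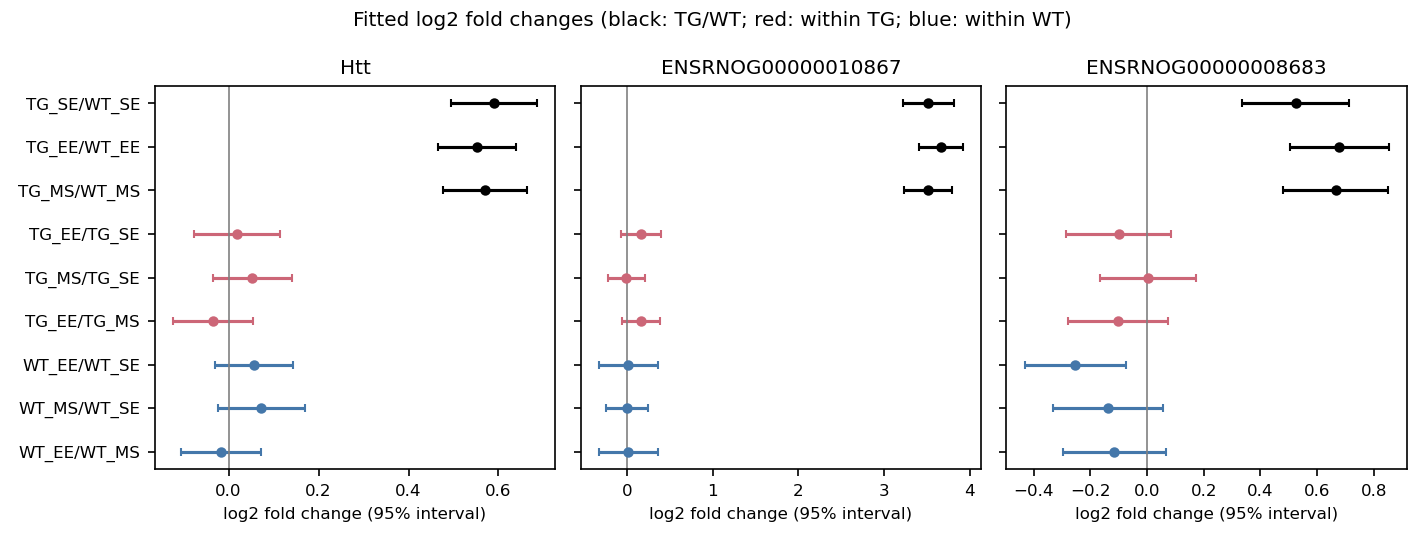
Fitted log2 fold changes (horizontal axis, a separate scale per gene) with 95% intervals for the TG/WT contrasts in black and the environment contrasts within TG in red and within WT in blue. The TG/WT intervals lie above 0 for all 3 genes, and of the 18 environment intervals only WT_EE/WT_SE of ENSRNOG00000008683, at -0.25, leaves out 0.

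The 3 genes differed in how far animals of a group lay apart. In TG animals the coefficient of variation (SD as a percent of the mean) of *Htt* was 6.82% in TG_SE, 4.68% in TG_EE and 5.79% in TG_MS, where counting error alone gives 2.08%, 2.07% and 1.99%. For ENSRNOG00000010867 it was 30.3% in TG_SE, 18.7% in TG_EE and 10.4% in TG_MS, against 3.79%, 3.35% and 3.47% from counting error. In WT animals, by contrast, the same gene varied by 11.2% in WT_SE, 16.05% in WT_EE and 17.1% in WT_MS, close to the 12.2%, 12.5% and 12.4% from counting error. ENSRNOG00000008683 varied by 7.10% to 10.9% in the TG groups and by 5.55% to 13.5% in the WT groups. Differences in spread between groups were not tested.

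The following single animals are examples, and co-variation of the 3 genes over all TG animals is given further below. TG_SE animal 2 was lowest of its group in all 3 genes, with counts of 2166 for *Htt*, 437 for ENSRNOG00000010867 and 344 for ENSRNOG00000008683. TG_SE animal 6 was highest of its group for ENSRNOG00000010867 at 1029 and for ENSRNOG00000008683 at 439, whereas its *Htt* count of 2326 was below the group median. TG_EE animal 4, with the low count of 286 for ENSRNOG00000008683, had 985 for ENSRNOG00000010867, the second highest of its group. TG_EE animal 6, a library that stood apart, was highest of its group for *Htt* at 2537 and lowest for ENSRNOG00000010867 at 704.

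Co-variation among the 18 TG animals was measured on log2 CPM centred on the mean of each environment, with two-sided p from 100000 permutations of animals within environments. *Htt* and ENSRNOG00000010867 had a Pearson r of 0.199 (permutation p = 0.512) and a Spearman rho of 0.115 (permutation p = 0.681). Leaving out the 2 animals farthest from the median of *Htt* turned r to -0.0855. Within environments r was 0.411 in TG_SE, -0.142 in TG_EE and 0.00631 in TG_MS, so no common direction was seen.

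*Htt* and ENSRNOG00000008683 had an r of 0.266 (permutation p = 0.318) and a rho of 0.238 (permutation p = 0.381), and r was 0.0534 without the 2 farthest animals. Within TG_SE, TG_EE and TG_MS, r was 0.360, 0.110 and 0.317. ENSRNOG00000010867 and ENSRNOG00000008683 had an r of 0.0185 (permutation p = 0.951) and a rho of -0.166 (permutation p = 0.557). Here r was -0.496 without the 2 farthest animals, and 0.396, -0.457 and -0.389 within TG_SE, TG_EE and TG_MS. In the 18 WT animals, which carry no transgene, the 3 values of r in the same order were 0.0943, -0.0653 and -0.0126. After Benjamini-Hochberg adjustment over these 6 relations, every Pearson permutation p was 0.960.

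**Figure D4:**
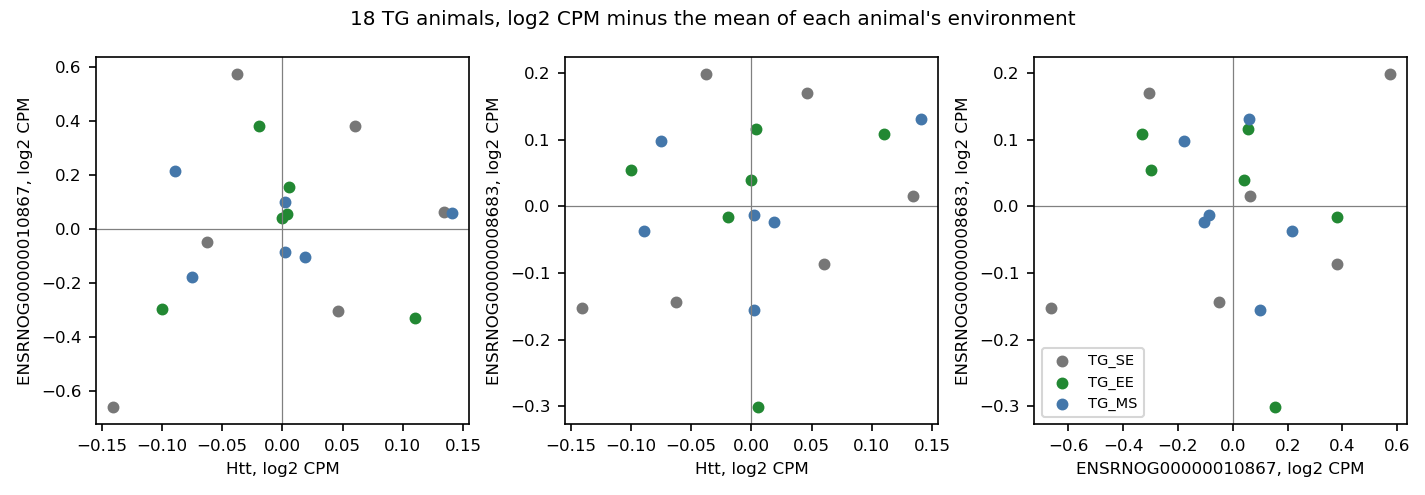
Log2 CPM of the 3 genes in pairs over 18 TG animals, each minus the mean of its environment, with TG_SE in grey, TG_EE in green and TG_MS in blue. The points form no line, and r was 0.199, 0.266 and 0.0185 from left to right. The leftmost point of every panel is TG_SE animal 2.

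The slope of each gene on the log2 CPM of *Htt* among TG animals was tested in edgeR with 1 mean per environment. ENSRNOG00000010867 had a slope of 0.56 (SE 0.88; edgeR adjusted p = 0.792), and ENSRNOG00000008683 had a slope of 0.44 (SE 0.42; edgeR adjusted p = 0.623), where a slope of 1 means equal log2 change. The 95% intervals ran from -1.28 to 2.39 and from -0.43 to 1.31, so both 0 and 1 lay inside each interval. These data therefore cannot tell no relation from equal log2 change. Of 12656 genes, 1 was called for its slope (0.0079%), neither of the 2 genes described here. This count was unstable, ranging from 0 to 767 over the alternatives run, from 0 to 757 with 1 TG animal left out. Over the same alternatives the slope of ENSRNOG00000010867 ran from -0.49 to 1.13 and that of ENSRNOG00000008683 from -0.08 to 0.67, none called.

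The genes most like each of the 3 were ranked by r over the 18 TG animals, as a description, since all genes share the same libraries. For *Htt* the highest 3 values of r were 0.868, 0.846 and 0.840, and ENSRNOG00000008683 ranked 3583 and ENSRNOG00000010867 ranked 4371 among 12656 genes. For ENSRNOG00000010867 the highest values were higher, at 0.971, 0.948 and 0.947, and *Htt* ranked 3857. The highest values for ENSRNOG00000008683 were 0.820, 0.802 and 0.796, and *Htt* ranked 2175. These most similar genes are given by r only, because no symbols were matched to them.

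ENSRNOG00000010867 went together with many genes in TG animals. An absolute r of at least 0.7 was found with 668 genes (5.28%) for ENSRNOG00000010867, with 148 (1.17%) for *Htt* and with 17 (0.134%) for ENSRNOG00000008683. In WT animals, where ENSRNOG00000010867 varied about as much as counting error, its number was 10 (0.0790%), while *Htt* had 235 (1.86%) and ENSRNOG00000008683 had 66 (0.521%). Over the 18 TG animals, ENSRNOG00000010867 had an absolute r of 0.764 with the second principal component of all tested genes, which held 18.1% of the variance. The absolute r of *Htt* with this component was 0.463 and that of ENSRNOG00000008683 was 0.356. The r of ENSRNOG00000010867 with the logarithm of the total count was 0.0588, against 0.306 for *Htt* and 0.480 for ENSRNOG00000008683. The part of depth and of cell makeup in these relations was not tested.

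**Figure D5:**
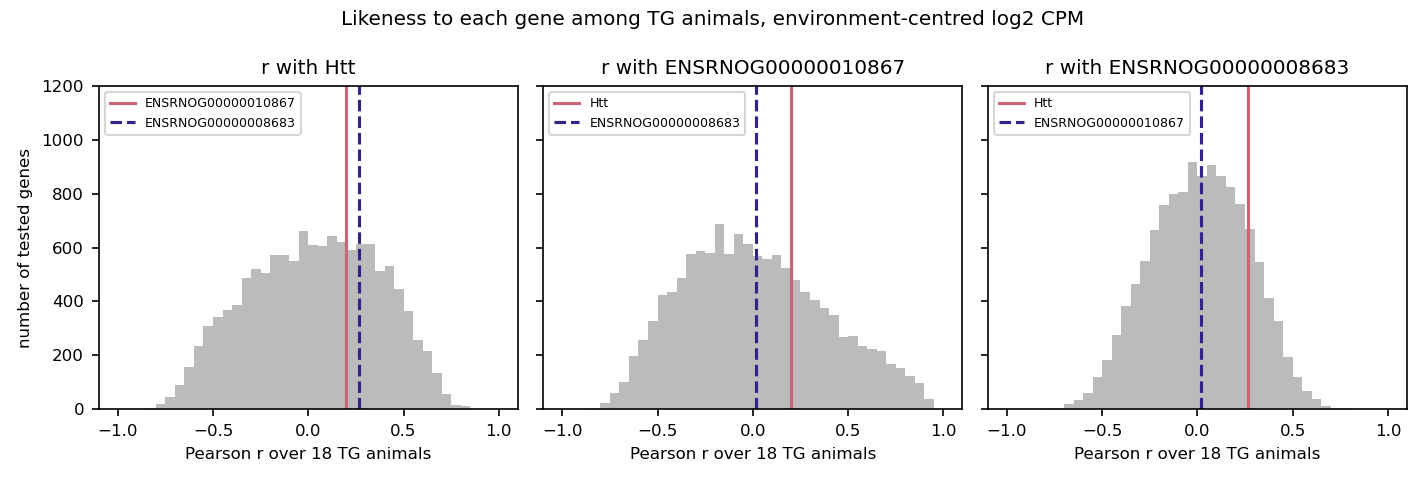
Number of tested genes (vertical axis) by Pearson r with *Htt*, ENSRNOG00000010867 and ENSRNOG00000008683 (horizontal axis, bins of 0.05) over 18 TG animals, with lines at the r of the other two. The lines lie in the broad middle of each distribution, between 0.0185 and 0.266, and the distribution of ENSRNOG00000010867 reaches up to 0.971.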

How the data were processed

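Per the labels and the methods of the study, poly(A) libraries of striatal RNA were read as paired ends, checked with FastQC 0.11.4 and aligned with STAR 2.5.2b to the Ensembl rat genome joined to the human *HTT* transgene. The authors deposited raw counts per Ensembl gene for 36 libraries, and the submitters' processing notes list DESeq2 1.16.1. The program that counted reads per gene is not given in the sources used here, so the treatment of reads shared by rat and human huntingtin is unknown. The labels and the methods of the study differ in read length and in RNA input.

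Groups came from genotype and environment in the labels. Animal numbers follow accession order. They coincide with the 6 runs of library numbers, which the sources used here do not describe as batches or pairs, so a fit blocked by run was an alternative and not the main fit. Libraries of a group differed by more than sampling noise (lowest chi-square per degree of freedom 5.04 over 90 pairs), and totals of 9895073 to 19284439 set the counting error. Genes averaging 50 raw counts or more over the libraries, 12657 of 23965, were fitted in R 4.3.3 with edgeR 4.0.16 (TMM, quasi-likelihood test, 1 mean per group) and 5 surrogate variables from sva 3.50.0. Benjamini-Hochberg adjustment ran over all tested genes. Log2 CPM used an added count of 0.5. Exact permutation tests were run in R, and permutations for correlations with numpy 2.4.6, with ranks from scipy 1.17.1. Scripts were tested on simulated data simpler than these. The simulated counts had no hidden variation, and for the slope *Htt* was made to vary more among TG animals than it did here.

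The 3 genes and all lists were chosen with earlier results of these data known. Genes named were to be the 3 members, members of pathway lists, the 3 most similar genes and chromosomal neighbours. Without symbols for the identifiers, the pathway lists, marker lists and neighbours were not analysed here. Alternatives were other covariates, normalizations and count filters, DESeq2 1.42.0, other centring and each animal left out. Leaving out 5 libraries that stood apart was chosen after seeing the data.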

Additional observations from a re-analysis of the deposited data

Results flagged for a closer look

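The count of ENSRNOG00000008683 in TG_EE animal 4 was 286, well below the other 5 animals of its group, of which the lowest had 348. The gap to the nearest animal made up 0.653 of the range of the group, above Dixon's 95% critical value for 6 samples. Of 18 groups examined (6 groups for each of 3 genes), this was the 1 with such a gap, and chance gives a gap of this kind in about 1 of 20 groups.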

How the results depend on the processing

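Under the alternatives run, the TG/WT log2 fold changes over the 3 environments ranged from 0.51 to 0.65 for *Htt*, from 3.33 to 3.79 for ENSRNOG00000010867 and from 0.47 to 0.76 for ENSRNOG00000008683. A filter of at least 50 counts in every sample removed ENSRNOG00000010867, leaving 2 genes higher in all 3 environments, and there were also 2 without WT_SE animal 1, where ENSRNOG00000008683 lost its call in SE, and 4 without WT_EE animal 1 or animal 3. None of the 18 environment contrasts was called under any alternative (lowest edgeR or DESeq2 adjusted p 0.222), and no correlation between the 3 genes passed (lowest adjusted permutation p 0.555).

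The number of genes called for a slope on *Htt*, 1 as reported, was the least stable result. It was 767 with total counts in place of TMM, 7 with a mean count of at least 10, and 0 with runs or surrogate variables as covariates and 0 without the 5 libraries that stood apart. With 1 TG animal left out it ranged from 0 to 757. It was 757 without TG_SE animal 6, 581 without TG_SE animal 4, 108 without TG_MS animal 1, 15 without TG_MS animal 4, 6 without TG_SE animal 2, 5 without TG_SE animal 1 and 2 without TG_MS animal 5. It was 0 without any one of TG_SE animal 5, TG_EE animals 1, 2, 4, 5 and 6, and TG_MS animals 2 and 6, and the cause was not tested. No slope of the 2 genes was called (lowest edgeR adjusted p 0.313).

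The fit blocked by run, with the 6 runs of library numbers in place of surrogate variables, called the 3 genes in all 3 environments and none of the 18 environment contrasts, 5 of which turned direction. The alternatives for gene lists were not run, since the lists could not be matched to identifiers. Counts of 47 to 96 in WT animals limit the precision for ENSRNOG00000010867.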
